A study of Mus musculus with 24 samples.

Results

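The genes described here are the 31 enzymes and transporters that carry glucose through glycolysis to lactate in the mouse, with a few that branch from it, chosen by their symbols among the 19895 rows of the deposited gene table. They include the glucose transporters Slc2a1, Slc2a3 and Slc2a6, the hexokinases, phosphofructokinases and their PFKFB regulators, the enzymes from aldolase to pyruvate kinase, the lactate dehydrogenases Ldha and Ldhb, the lactate transporters Slc16a1 and Slc16a3, and the side branch genes Pgm1, Pgm2, Galk1, Bpgm and Minpp1. Of these, 26 had a row of their own with a count above 0 in every library and were tested among 11438 such genes. Tpi1, Pfkp, Pfkfb2 and Galk1 share their row with a neighbouring gene and were left out of tests, and Slc2a3 had 0 counts in 1 library.

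N organoids are 3-dimensional cultures grown from ductal isolates of the pancreas of wild-type C57Bl/6J mice, and KP organoids are cultures from pancreatic ductal adenocarcinoma of mice in which Pdx1-Cre releases mutant alleles, among them 1 Trp53 LSL-R172H allele beside the wild-type allele. In that model the Pdx1 promoter drives Cre in the pancreatic lineage, so that the mutant alleles act from early pancreas development, and organoid cultures of this kind hold epithelial cells without the stroma of a tumour. CR-31, a rocaglate that inhibits the RNA helicase eIF4A, was given at 10 nM over 1 h and compared with vehicle (DMSO), with 3 replicates per group. mRNA carrying at least 3 ribosomes (polysome-associated mRNA) and total mRNA were sequenced from all 12 lysates, which makes 24 libraries in 8 groups. The labels do not say whether the replicates came from separate cultures or animals, so p-values measure the spread between these samples, which may be technical.

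Glycolysis splits glucose into pyruvate through a chain of cytosolic enzymes, and lactate dehydrogenase turns pyruvate into lactate, which leaves the cell through monocarboxylate transporters. Hexokinase and phosphofructokinase catalyse early committed steps, and the PFKFB enzymes set the level of fructose 2,6-bisphosphate, a strong allosteric activator of phosphofructokinase. Many of these genes exist as isozymes with different regulation, several are targets of HIF-1 and MYC, and pancreatic tumours are known for high glucose uptake and lactate output.

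The promoters of 30 of the 31 members were found in RefSeq on GRCm38.p6, taken as the 250 bases before each annotated start. The letters ACGTG, the core shared by the sites of HIF-1 and of MYC and other E-box factors, were searched on both strands, and CACGTG, the palindromic E-box, contains ACGTG on both strands. Counted by gene, ACGTG stood in at least 1 promoter of 15 of the 30 members (50%), against 24.6% of 8848 tested genes with a promoter, and CACGTG in 6 of the 30 (20%), against 9.88%. Counted by promoter, ACGTG stood in 19 of the 45 promoters of members (42.2%), against 16.6% of all 32851 promoters, and CACGTG in 6 of the 45 (13.3%), against 6.02%. The promoters of 4 genes are printed, Ldha and Ldhb for opposite differences between organoid types and Hk2 and Pfkfb3 for their values with CR-31, on the gene's strand from 5′ to 3′, with ACGTG on either strand in capitals (CACGT on the printed strand is ACGTG on the other). Ldha lies on the plus strand at chr7:46845554-46845803 (the other of its annotated starts holds no match). Ldhb is on the minus strand at chr6:142507958-142508207, Hk2 on the minus strand at chr6:82774455-82774704 and Pfkfb3 on the minus strand at chr2:11502091-11502340. A match is a stretch of letters and not a measured binding site.
Ldha: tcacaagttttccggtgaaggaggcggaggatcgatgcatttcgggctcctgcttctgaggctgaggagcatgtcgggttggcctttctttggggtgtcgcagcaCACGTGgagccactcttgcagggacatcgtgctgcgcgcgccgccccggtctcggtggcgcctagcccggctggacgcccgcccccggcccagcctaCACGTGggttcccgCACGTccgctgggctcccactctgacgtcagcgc
Ldhb: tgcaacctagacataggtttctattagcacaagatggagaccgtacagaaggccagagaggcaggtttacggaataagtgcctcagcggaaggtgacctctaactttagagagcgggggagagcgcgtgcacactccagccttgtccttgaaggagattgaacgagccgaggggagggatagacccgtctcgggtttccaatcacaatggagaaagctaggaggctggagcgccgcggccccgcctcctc
Hk2: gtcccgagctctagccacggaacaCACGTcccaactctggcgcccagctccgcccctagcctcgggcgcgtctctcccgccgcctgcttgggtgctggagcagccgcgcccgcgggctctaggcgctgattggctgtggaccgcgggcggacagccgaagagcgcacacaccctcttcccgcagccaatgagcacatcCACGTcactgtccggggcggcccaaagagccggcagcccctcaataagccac
Pfkfb3: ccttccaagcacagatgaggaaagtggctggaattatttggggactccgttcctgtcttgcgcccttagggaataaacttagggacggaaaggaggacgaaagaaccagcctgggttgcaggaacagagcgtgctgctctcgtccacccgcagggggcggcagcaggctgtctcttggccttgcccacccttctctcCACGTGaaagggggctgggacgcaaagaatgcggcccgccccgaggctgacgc

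The Ldha promoter held 5 matches to ACGTG, of which 4 come from 2 copies of CACGTG, and the Hk2 promoter held 2. In this Pfkfb3 promoter both matches come from 1 CACGTG, and its other annotated start holds 1 match. These letters were not in the window before Ldhb. The promoters of Gapdh and Gpi1 held no match either, while Pgk1 and Slc16a3 held 2 each.

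Libraries held 47308461 to 267463046 counted reads, so that counting error matters only for the lowest genes. Sequencing lane and run were read from the codes of the libraries, a reading that was not checked further. By these codes KP and N libraries were never on the same lane or run, so that organoid type and lane cannot be told apart. In both types the vehicle and CR-31 libraries of number 2 were on different lanes, while those of numbers 1 and 3 shared a lane. Several libraries stood apart from the rest. Across the 11438 tested genes a polysome library correlated best with the total library of its own lysate in 7 of 12 lysates. For N number 3 the polysome library labelled vehicle matched the total library labelled CR-31 (r = 0.986) above its own (r = 0.964), and the polysome library labelled CR-31 matched the total library labelled vehicle (r = 0.984) above its own (r = 0.962). Whether the treatment labels of N number 3 are exchanged in 1 of its fractions cannot be told from these values, so that each N number 3 value below is that of the library as labelled, and its direction with CR-31 depends on those labels. The KP CR-31 number 1 polysome library matched the KP vehicle number 1 total library (r = 0.989) above its own (r = 0.962). The KP vehicle number 1 polysome library matched its own total library (r = 0.988) above the KP CR-31 number 1 total library (r = 0.970). In KP number 1 it was thus the CR-31 total library that correlated less with both polysome libraries. The KP vehicle number 3 polysome library had 105 genes over 0.5 CPM (reads of a gene relative to the size of its library, scaled by TMM) and more than 3 times every other library, against 0 to 2 such genes in each of the other 23. Among these were the leukocyte genes Ptprc (3.26 against at most 0.0750 elsewhere) and Lyz2 (25.2 against at most 1.23), at 0 and 0.00907 in the total library of the same lysate, and none was a member. Counts without these lysates are given for the main comparisons and values for the members the text describes as resting on them, and the part of these libraries in the results was not tested further.

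Summed over the list, 11 duct epithelium markers reached 10005 to 16808 CPM in N and 6976 to 12039 in KP libraries. The 6 immune markers, most of whose sum was Cd14, reached 177 to 1082 CPM in N and 95.0 to 238 in KP, and in the N vehicle polysome libraries they read 177, 279 and 1082, highest in number 3. Skeletal muscle markers summed to 48.5 to 67.6 CPM in the N number 2 libraries, nearly all of it Acta1, to 2.05 to 4.30 in the other N libraries and to 0.441 to 4.32 in KP. Fibroblast markers summed to 0.427 to 1.04 in N and 0.0551 to 0.320 in KP, and endothelial and endocrine markers to at most 0.443 in any library. The part of these differences between the types in the values of KP against N was not tested. In such bulk lysates, fewer cells of a type and less RNA per cell cannot be told apart.

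Per length, as deposited RPKM of total mRNA, the same 6 enzymes led in both organoid types. In vehicle-treated N organoids Aldoa, which cleaves fructose 1,6-bisphosphate, had the highest level (1360 ± 276 RPKM, SD, n = 3), followed by the kinase Pgk1 (1281 ± 499), which did not differ from it beyond their spread. Gapdh (763 ± 121), Pkm (704 ± 150) and Ldha (616 ± 73.4) came next and overlapped among themselves, then Pgam1 (477 ± 26.3) and Gpi1 (289 ± 67.4). KP organoids had Aldoa (1422 ± 293) and Pgk1 (1245 ± 366) first, then Pkm (1140 ± 206), Ldha (1032 ± 192), Gapdh (935 ± 87.6) and Pgam1 (752 ± 199). The glucose transporter Slc2a1 and the phosphofructokinase Pfkl followed at 71.5 ± 25.5 and 51.5 ± 2.59 RPKM in N and 75.8 ± 13.6 and 75.2 ± 26.2 RPKM in KP. At the bottom stood Pfkfb1 (1.02 ± 0.157 RPKM in N), Eno3, Pfkfb4, the neuronal enolase Eno2, and the transporters Slc2a6 (0.0991 ± 0.0926) and Slc2a3 (0.0143 ± 0.0125).

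The first comparison asked which of these mRNAs differed between KP and N organoids without drug. KP organoids held more Ldha, Pgam1, Gapdh, Minpp1 and Pfkfb1 in polysome-associated mRNA and less Ldhb, Hk2, Pfkfb3 and Pfkm, at an adjusted p under 0.25 in edgeR. The 5 members that rose are 5 of 26 tested, beside 20.9% of all 11438 genes, and the 4 that fell stand beside 22.2% of all genes. In total mRNA 7 members rose (Ldha, Pgam1, Pkm, Hk1, Pfkfb1, Minpp1 and Slc16a1), beside 13.1% of all genes, and Ldhb alone fell, beside 15.4%. DESeq2 called 5 up (20.6% of all genes) and 4 down (23.1%) in polysome-associated mRNA and 8 up (13.8%) and 1 down (16.6%) in total mRNA. The members had a median log2 fold change of 0.21 on polysomes and 0.15 in total mRNA, against -0.03 over all genes tested in both. Groups did not overlap for 7 members in polysome-associated mRNA, with 4 higher in KP (Pgam1, Minpp1, Pfkfb1 and Eno3) beside 18% of all genes and 3 lower (Ldhb, Hk2 and Pfkfb3) beside 15.8%. The same held for 7 in total mRNA, with 6 higher (Ldha, Pgam1, Pkm, Pfkfb1, Pfkfb4 and Slc16a1) beside 15.9% and Ldhb lower beside 16.5%.

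**Figure D1:**
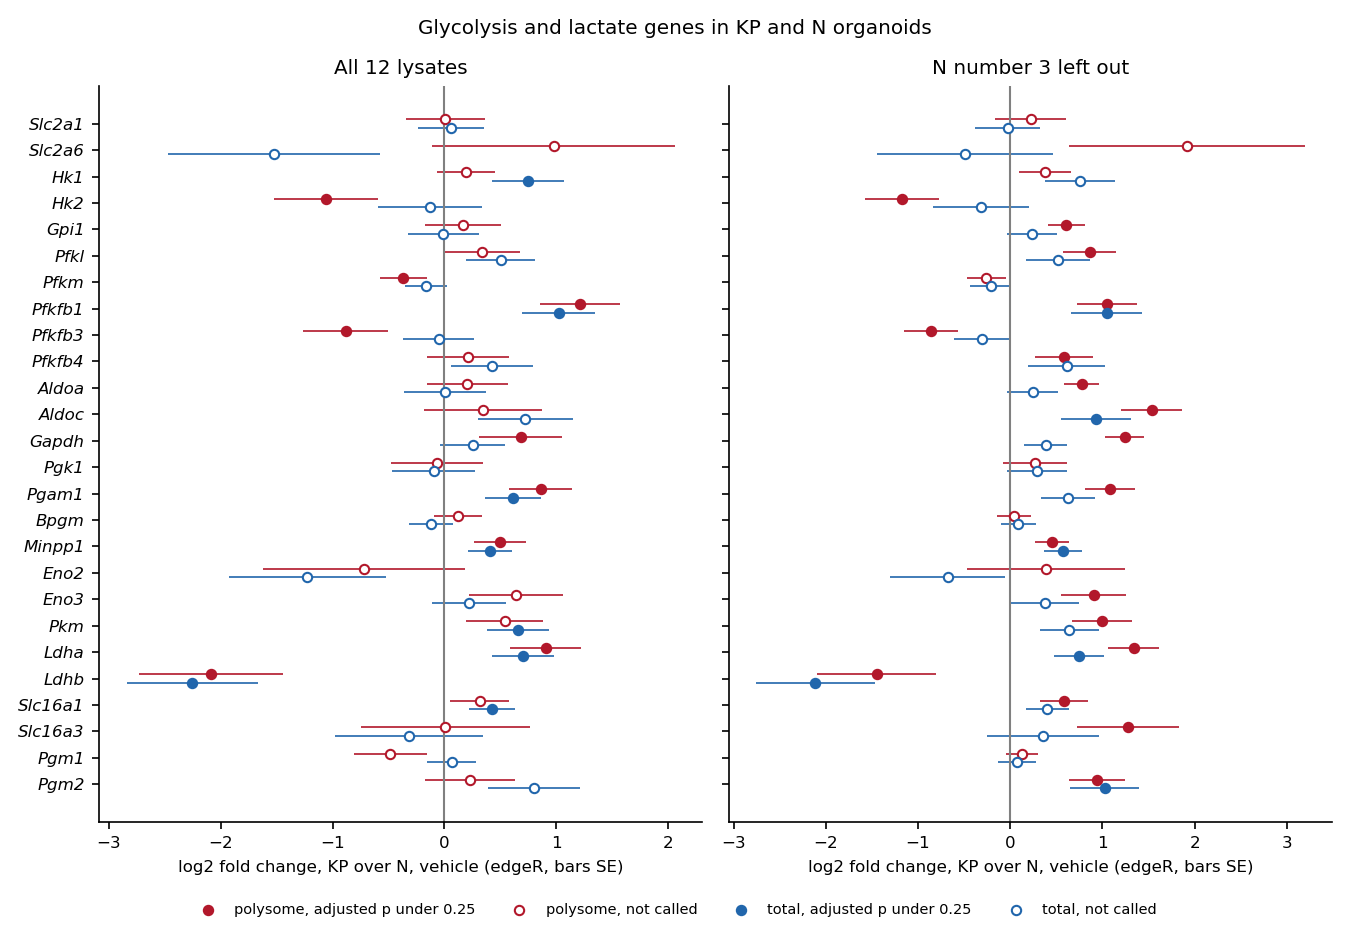
Log2 fold change of KP over N organoids without drug for the 26 tested members (points, with SE as bars, edgeR), in polysome-associated (red) and total mRNA (blue), with all 12 lysates on the left and without both lysates of N number 3 on the right. Filled points have an adjusted p under 0.25. In both panels Ldhb lies far to the left and Ldha, Pgam1 and Pfkfb1 to the right of 0, and most lower glycolytic enzymes have a larger polysome value in the right panel.

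The comparison depended on the lysates of N number 3. Without them, edgeR called 18 of 26 members in polysome-associated mRNA, 15 higher in KP beside 26.3% of all genes and 3 lower (Hk2, Ldhb and Pfkfb3) beside 26.3%. The median log2 fold change of the members was then 0.60. In total mRNA the same fit called 5 higher, beside 8.25%, and 1 lower, beside 10.7%. Ldha, Pgam1, Pfkfb1 and Ldhb were called in polysome-associated mRNA whichever of the 12 lysates was left out, and Ldhb and Pfkfb1 in total mRNA. Leaving out single lysates gave between 5 of 26 calls (without KP vehicle 1, beside 28.5% of all genes, or without KP vehicle 2, beside 32.2%) and 16 (without N vehicle 3, beside 48.1%) in polysome-associated mRNA. In total mRNA it gave 2 of 26 without KP vehicle 1 (14.1% of all genes), KP vehicle 2 (20.5%) or N vehicle 2 (20.2%), 4 without N vehicle 3 (16%), and at most 11, without N CR-31 1 (30.6%) or N CR-31 3 (31.0%). Without KP vehicle 3, the library with the leukocyte genes, it gave 8 in polysome-associated mRNA (38% of all genes) and 9 in total mRNA (23.4%). In polysome-associated mRNA 11 members changed sign over these leave-outs, none of them called over all lysates.

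The lactate dehydrogenase genes differed in opposite directions. Ldha encodes the M subunit, which favours the reduction of pyruvate to lactate. Its polysome libraries read 914, 634 and 1577 CPM (replicates 1, 2 and 3) in N and 2379, 1907 and 1571 in KP, a log2 fold change of 0.91 ± 0.32 (SE, adjusted p = 0.0742). The lowest KP library lay just under the highest N library, the library labelled N vehicle 3. Total mRNA read 1166, 998 and 1179 CPM in N and 2028, 1955 and 1461 in KP, with no overlap (0.70 ± 0.27, adjusted p = 0.135). Without N number 3 the log2 fold change of Ldha was 1.34 on polysomes (adjusted p = 0.011) and 0.75 in total mRNA (adjusted p = 0.169), and the total call was lost without KP vehicle 1, KP vehicle 2 or N vehicle 2.

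Ldhb, the H subunit that is typical of tissues that oxidise lactate, was the member that fell most. Polysome libraries read 7.17, 13.7 and 28 CPM in N and 2.15, 2.35 and 7.01 in KP (log2 fold change -2.09 ± 0.64, adjusted p = 0.0476). Total libraries read 10.3, 23.8 and 22.4 CPM in N and 1.87, 3.06 and 6.87 in KP (-2.26 ± 0.59, adjusted p = 0.0357). In both kinds of library every KP value was below every N value, and number 3 was the highest of the KP libraries. Leaving out single lysates gave log2 fold changes from -2.88 to -1.44 in polysome-associated mRNA and from -2.93 to -1.92 in total mRNA.

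**Figure D2:**
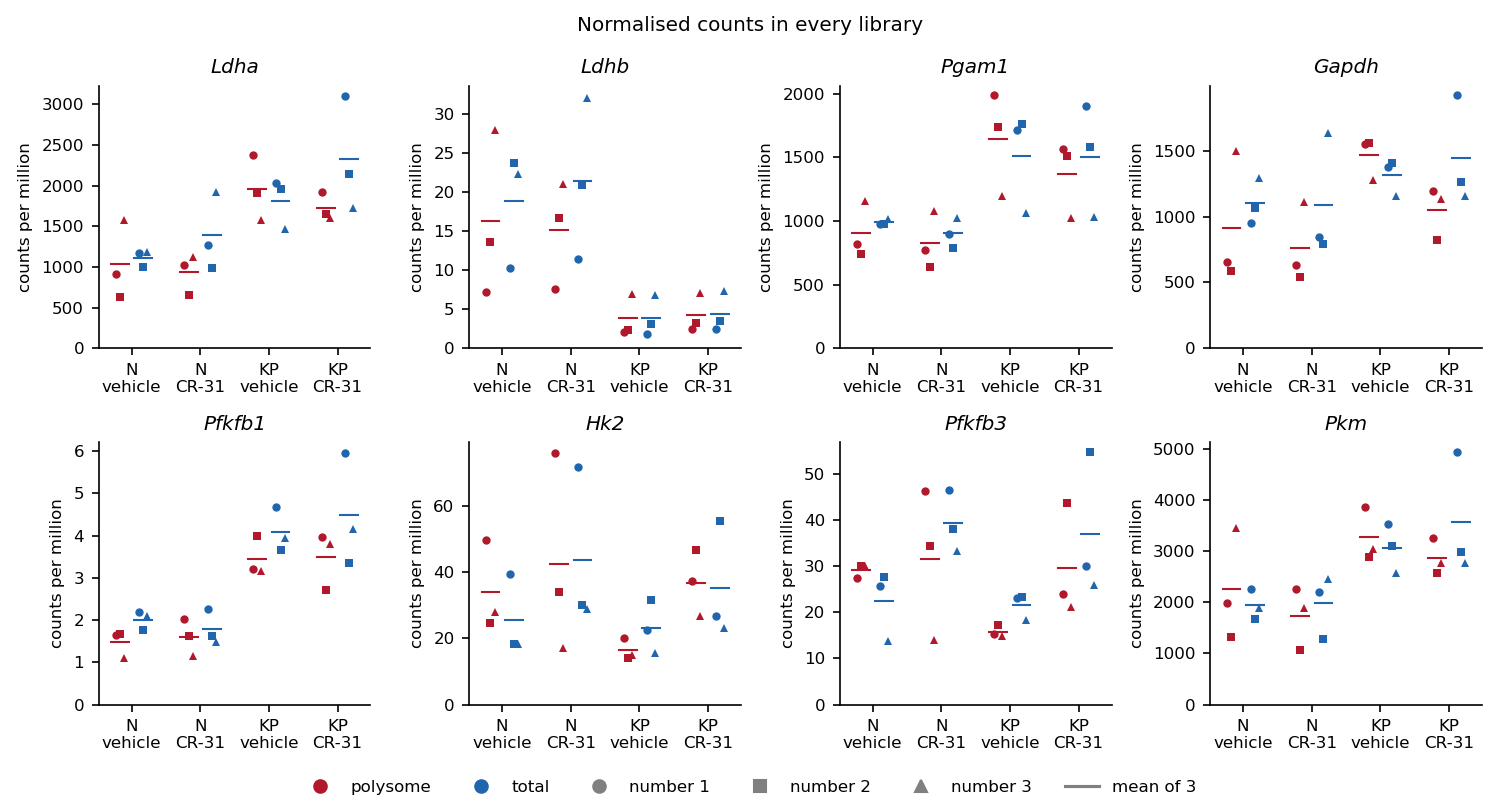
Normalised read counts (CPM) of 8 members in each of the 24 libraries, polysome-associated in red and total in blue, with the replicate number as the marker and the mean of 3 as a line. KP libraries lie above N libraries for Pfkfb1 and below them for Ldhb in both fractions, and with vehicle the N number 3 polysome values of Ldha, Gapdh and Pkm lie far above those of N numbers 1 and 2.

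In lower glycolysis Pgam1, the phosphoglycerate mutase, rose in both fractions. It read 820, 740 and 1155 CPM in N and 1993, 1742 and 1195 in KP polysome libraries (0.86 ± 0.29, adjusted p = 0.0605) and 980, 977 and 1013 against 1718, 1759 and 1065 CPM in total libraries (0.61 ± 0.25, adjusted p = 0.152). Neither fraction had overlapping groups, and KP number 3 lay close to the N values in both, and the total call was lost without KP vehicle 1, KP vehicle 2, N vehicle 2 or N vehicle 3. Gapdh, which makes 1,3-bisphosphoglycerate, read 652, 589 and 1498 CPM in N and 1552, 1561 and 1279 in KP polysome libraries (0.68 ± 0.37, adjusted p = 0.221). Here the library labelled N vehicle 3 overlapped the KP group, and without N number 3 the value was 1.24 (adjusted p = 0.0059). The call was lost when any of 7 lysates was left out, among them KP vehicle 1, 2 and 3. Gapdh in total mRNA was not called (950, 1061 and 1291 against 1377, 1404 and 1155 CPM, 0.25 ± 0.29).

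Pkm, the pyruvate kinase of most dividing cells, read 2254, 1673 and 1893 CPM in N and 3522, 3091 and 2573 in KP total libraries, with no overlap (0.66 ± 0.28, adjusted p = 0.174), a call lost without the same 4 lysates as for Pgam1. Its polysome libraries overlapped through N number 3 (1975, 1324 and 3448 against 3870, 2892 and 3050 CPM), and the value of 0.54 ± 0.34 was not called. Leaving out single lysates gave 0.27 to 0.98, with a call in 1 of 12 leave-outs. Aldoa and Pgk1 had log2 fold changes of 0.21 and -0.07 in polysome-associated mRNA and 0.01 and -0.10 in total mRNA, none of them called. Aldoa read 1898, 1616 and 4302 CPM in N and 2996, 3361 and 2661 in KP polysome libraries, so that N number 3 exceeded all KP libraries, and without N number 3 the value was 0.78 (adjusted p = 0.0205). The brain-type aldolase Aldoc followed the same pattern, with 0.34 over all lysates and 1.53 (adjusted p = 0.0132) without N number 3. The enolases Eno2 and Eno3 were low, and Eno3, the muscle form, read 0.953, 1.44 and 1.90 CPM in N and 2.23, 2.56 and 1.90 in KP polysome libraries (0.65 ± 0.42, not called).

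Of the hexokinases, which trap glucose as glucose 6-phosphate, Hk2 fell in KP polysomes and Hk1 rose in KP total mRNA. Hk2 read 49.6, 24.5 and 27.9 CPM in N and 20.1, 14 and 14.9 in KP polysome libraries, without overlap (-1.06 ± 0.46, adjusted p = 0.136). Its total libraries overlapped (39.5, 18.4 and 18.3 against 22.5, 31.6 and 15.7 CPM) and the value of -0.13 ± 0.47 changed sign when KP vehicle 3 (0.09) or N vehicle 1 (0.34) was left out. The polysome call was lost without KP vehicle 2 or without N vehicle 1. Hk1 read 39.2, 36.1 and 38 CPM in N and 71.5, 81.9 and 37.3 in KP total libraries (0.75 ± 0.32, adjusted p = 0.174), where KP number 3 lay among the N values and the call was lost without those same 4 lysates. In polysomes Hk1 read 40.3, 41.5 and 57.3 against 63.7, 55.6 and 39.7 CPM and was not called (0.19 ± 0.26).

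Of the phosphofructokinase subunits, Pfkm alone was called. Pfkm, the muscle subunit, read 28.9, 44.6 and 45.5 CPM in N and 33.1, 28.9 and 30.2 in KP polysome libraries (-0.37 ± 0.21, adjusted p = 0.243), a call that was kept in 3 of 12 leave-outs. Skeletal muscle markers (4 of 5 with a row) summed to 3.86, 48.5 and 2.05 CPM in the N vehicle polysome libraries and 0.668, 4.06 and 1.93 in those of KP. In N number 2 the sum was nearly all Acta1 (48.4 CPM, with Ckm at 0.0805 and Myh4 and Tnnt3 at 0), and N number 3, with the highest Pfkm value, was within the KP range. The part of these markers in the Pfkm values was not tested. Pfkl, the liver subunit and the most abundant of those tested, had log2 fold changes of 0.34 in polysome-associated and 0.50 in total mRNA, neither called. Of the bifunctional PFKFB enzymes, Pfkfb1 and Pfkfb3 went opposite ways. Pfkfb1, the liver form, read 1.65, 1.68 and 1.11 CPM in N and 3.20, 3.98 and 3.15 in KP polysome libraries (1.22 ± 0.36, adjusted p = 0.0402), and 2.19, 1.77 and 2.09 against 4.69, 3.65 and 3.94 CPM in total libraries (1.02 ± 0.33, adjusted p = 0.0743). No library of KP overlapped with N.

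Pfkfb3, the form with the highest kinase activity, read 27.3, 29.9 and 30.1 CPM in N and 15.3, 17.1 and 14.9 in KP polysome libraries, each group being tight and apart from the other (-0.88 ± 0.38, adjusted p = 0.129). Total libraries overlapped (25.7, 27.6 and 13.8 against 23.1, 23.3 and 18.4 CPM) at -0.05 ± 0.32, a value that changed sign without KP vehicle 3 (0.05), N vehicle 1 (0.06) or N vehicle 2 (0.13). Without KP vehicle 1 the polysome call of Pfkfb3 was lost. Pfkfb4 had values of 0.21 and 0.42 in polysome-associated and total mRNA, without a call.

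At the cell surface, Slc2a1, the glucose transporter with the highest level here, read 218, 113 and 245 CPM in N and 169, 246 and 165 in KP polysome libraries, a value near 0 (0.01 ± 0.35), and 0.06 ± 0.30 in total mRNA. The lactate and proton symporter Slc16a1 read 63.1, 43.8 and 50.9 CPM in N and 70.6, 76.4 and 64.7 in KP total libraries, without overlap (0.42 ± 0.21, adjusted p = 0.228, kept in 5 of 12 leave-outs), and 0.32 ± 0.26 in polysomes, not called. Slc16a3, the export form typical of glycolytic cells, varied widely between replicates, with 15.8, 27.5 and 113 CPM in N and 57.9, 77.2 and 22.5 in KP polysome libraries (0.01 ± 0.75). Number 3 was the highest N and the lowest KP library, and without N number 3 the value was 1.28 (adjusted p = 0.119).

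Among the side branches, Minpp1, a phosphatase that can turn 2,3-bisphosphoglycerate into 2-phosphoglycerate, read 52.6, 45.2 and 44.4 CPM in N and 66.1, 78.9 and 55.5 in KP polysome libraries, without overlap (0.50 ± 0.23, adjusted p = 0.166). In total mRNA it read 54.6, 51.2 and 71.7 against 71.4, 98.5 and 66.3 CPM (0.41 ± 0.20, adjusted p = 0.222). The polysome call was lost in 4 of 12 leave-outs and the total call in 5, KP vehicle 1, KP vehicle 2 and N vehicle 2 among both. Bpgm, which makes 2,3-bisphosphoglycerate, had 0.12 and -0.12 and was not called. The phosphoglucomutase rows use older symbols: the row named Pgm1 lies where RefSeq now places Pgm2, and the row named Pgm2 where it places Pgm1. The row named Pgm2 had 0.23 in polysome-associated and 0.80 in total mRNA and the row named Pgm1 -0.48 and 0.07, none of them called, and without N number 3 the row named Pgm2 was called in both (0.94, adjusted p = 0.0519, and 1.02, adjusted p = 0.164).

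Translational efficiency, the difference in polysome-associated mRNA beyond that in total mRNA, was tested as an interaction over all 24 libraries. edgeR called 0 of 26 members between KP and N vehicle, as it called 0% of all genes, with 3 members and 11.3% of all genes at an unadjusted p under 0.05. These were Hk2 (-0.96 ± 0.33, unadjusted p = 0.0112 in edgeR), Pfkfb3 (-0.93 ± 0.33, unadjusted p = 0.0135) and Hk1 (-0.53 ± 0.24, unadjusted p = 0.0417), all lower in KP. A regression of polysome on total mRNA called Hk2 (-0.98, adjusted p = 0.214) and Pfkfb3 (-0.93, adjusted p = 0.233), beside 10.5% of all genes. Without N number 3 the interaction called 11 members. The 8 higher in KP, beside 20% of all genes, were Gapdh (0.82), Slc16a3 (0.87), Ldhb (0.58), Ldha (0.57), Aldoa (0.52), Aldoc (0.51), Pgam1 (0.42) and Pfkl (0.33). The 3 lower, beside 15.8%, were Hk2 (-0.87), Pfkfb3 (-0.58) and Hk1 (-0.36). DESeq2 was not run on this interaction.

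Shares of isozymes were computed per library from RPKM, and an exact permutation test of 3 against 3 cannot give a p below 0.1, which 3 of 9 shares reached in polysome-associated and 5 of 9 in total mRNA. Ldhb made up 0.950%, 2.57% and 2.13% of lactate dehydrogenase RPKM in N and 0.111%, 0.151% and 0.540% in KP polysome libraries (exact permutation p = 0.1, 2-sided). In total mRNA its mean share was 2.06% ± 0.90 (SD, n = 3) in N and 0.293% ± 0.25 in KP (exact permutation p = 0.1). Ldha carried the rest of the family in both organoid types. Hk2 made up 46%, 29.2% and 26.8% of Hk1 and Hk2 RPKM in N and 17.9%, 15.9% and 20.6% in KP polysome libraries (exact permutation p = 0.1), and 31.9% ± 8.1 against 20.5% ± 2.4 in total mRNA (exact permutation p = 0.1).

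In total mRNA the Pfkm share of Pfkl and Pfkm was 17.1% ± 1.7 in N and 12.3% ± 3.2 in KP, and the Aldoc share of the aldolases was 1.84% ± 0.64 and 2.98% ± 0.14 (exact permutation p = 0.1 each). Eno3 took 80.9% ± 7.0 of Eno2 and Eno3 in N and 91.3% ± 2.6 in KP total mRNA (exact permutation p = 0.1), a pair that leaves out Eno1, the common enolase, which is no member. The row named Pgm2 took 79.1% ± 2.3 of the phosphoglucomutases in N and 85.9% ± 3.3 in KP polysomes (exact permutation p = 0.1). The Slc16a3 share of both lactate transporters did not separate the types (57.1% ± 19 in N and 57.8% ± 12 in KP polysomes). In polysomes the KP minus N difference in the Ldhb share was -1.62 percentage points, -1.49 without N vehicle 3 and -1.75 without KP vehicle 3, and that in the Hk2 share -15.8, -19.4 and -17.1. In total mRNA that in the Eno3 share was 10.5, 7.16 and 11.6.

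**Figure D3:**
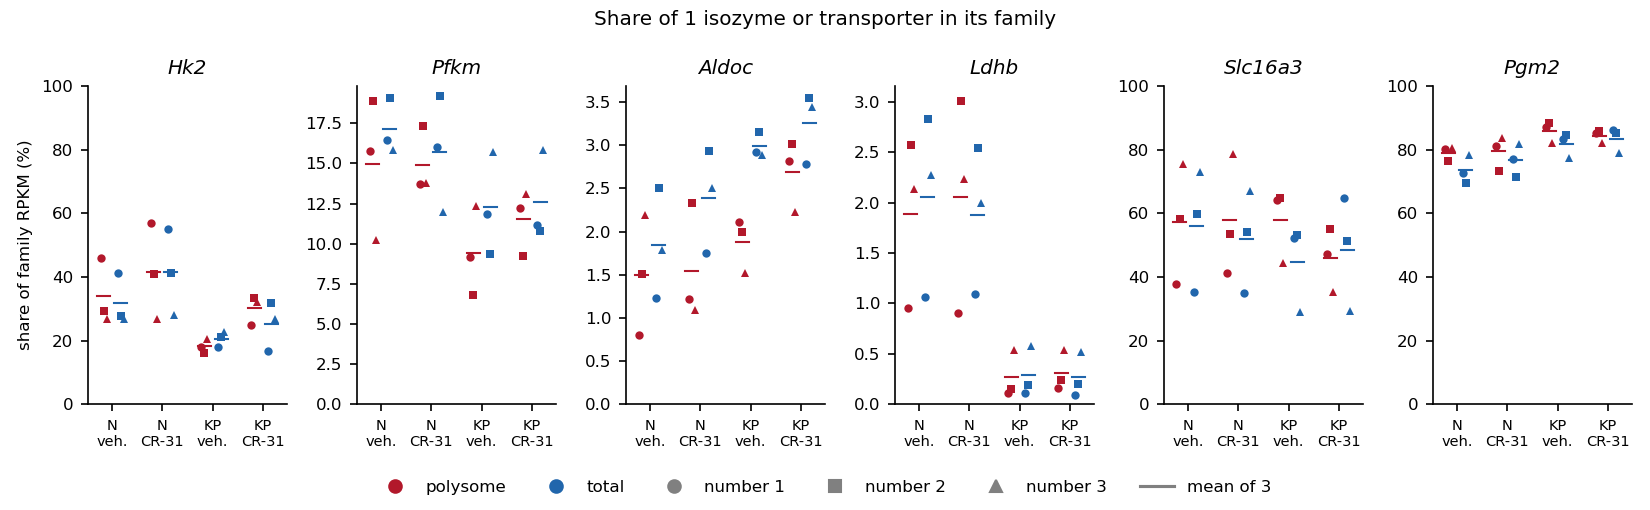
Share of 6 isozymes or transporters in the summed RPKM of their family (percent) in each of the 24 libraries, polysome-associated in red and total in blue, with the mean of 3 as a line; axes differ between panels and start at 0. The 6 KP vehicle values of Ldhb and of Hk2 lie below the 6 N vehicle values.

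The next comparisons asked what 1 h of CR-31 did to these mRNAs, against the same vehicle libraries as above. In KP organoids edgeR called 0 of 26 members in polysome-associated mRNA, and 0% of all genes, with 3 members and 3.55% of all genes at an unadjusted p under 0.05 and 0 members called by DESeq2. Slc2a6 (-3.36 ± 1.22, unadjusted p = 0.0171 in edgeR), Hk2 (1.17 ± 0.46, unadjusted p = 0.0265) and Pfkfb3 (0.91 ± 0.38, unadjusted p = 0.0341) were those 3. In total mRNA edgeR and DESeq2 called 0 members, with 1 at an unadjusted p under 0.05 (Pfkfb3, 0.78 ± 0.32, beside 0.953% of all genes), and in translational efficiency edgeR called 0, with 1 (Slc2a6, -3.66 ± 0.96, beside 5.48%). Leaving out single lysates moved this Slc2a6 value between -4.40 and -2.08. In N organoids edgeR called 0 members in all 3 measures, with 0, 1 and 2 at an unadjusted p under 0.05 in polysome-associated mRNA, total mRNA and translational efficiency (0.420%, 2.60% and 2.87% of all genes), and DESeq2 called 0 in polysome-associated and total mRNA. The median log2 fold change of the members in KP was -0.11 on polysomes and 0.22 in total mRNA, against -0.02 and 0.02 over all genes, and in N it was -0.14 and 0.14.

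Same-numbered vehicle and CR-31 libraries deviated together, so the replicate number was also fitted as a block within each organoid type. With the block, 6 members were called in KP polysome-associated mRNA. Hk2 (1.15 ± 0.27, adjusted p = 0.192) and Pfkfb3 (0.83 ± 0.31, adjusted p = 0.204) rose, beside 8.30% of all genes, and Slc2a6 (-2.83 ± 0.58, adjusted p = 0.192), Eno2 (-1.25 ± 0.46, adjusted p = 0.201), Gapdh (-0.49 ± 0.18, adjusted p = 0.204) and Slc16a3 (-0.42 ± 0.18, adjusted p = 0.243) fell, beside 11.1%. In N the same block called 0 members and 0% of all genes, with 0 members and 3.66% of all genes at an unadjusted p under 0.05. Which lysates were in the fit decided these counts. Without KP number 3 the block called 0 members in KP and 0% of all genes, with 4 members and 16.4% of all genes at an unadjusted p under 0.05. Without KP number 1, whose CR-31 polysome library matched the vehicle total library best, it also called 0, beside 0% higher and 0.00874% lower of all genes, with 4 members and 6.49% of all genes at an unadjusted p under 0.05 in edgeR. Hk2 was then 1.29 ± 0.35, Pfkfb3 0.93 ± 0.40, Gapdh -0.55 ± 0.26 and Slc16a3 -0.34 ± 0.25. Without KP number 2, the pair split between lanes, it called 0 members and 0% of all genes, with 2 members and 4.06% of all genes at an unadjusted p under 0.05, and Hk2 was 0.86 ± 0.31, Pfkfb3 0.57 ± 0.38 and Gapdh -0.28 ± 0.20. Without N number 3, whose spread enters the estimate for all groups, it called 17 in KP (8 higher beside 25.4%, 9 lower beside 29.5%) and 6 in N (4 higher beside 9.68%, 2 lower beside 5.37%). Without number 3 of both types it called 16 in KP (8 higher beside 29.7%, 8 lower beside 27.8%) and 7 in N (5 higher beside 12.2%, 2 lower beside 9.35%).

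**Figure D4:**
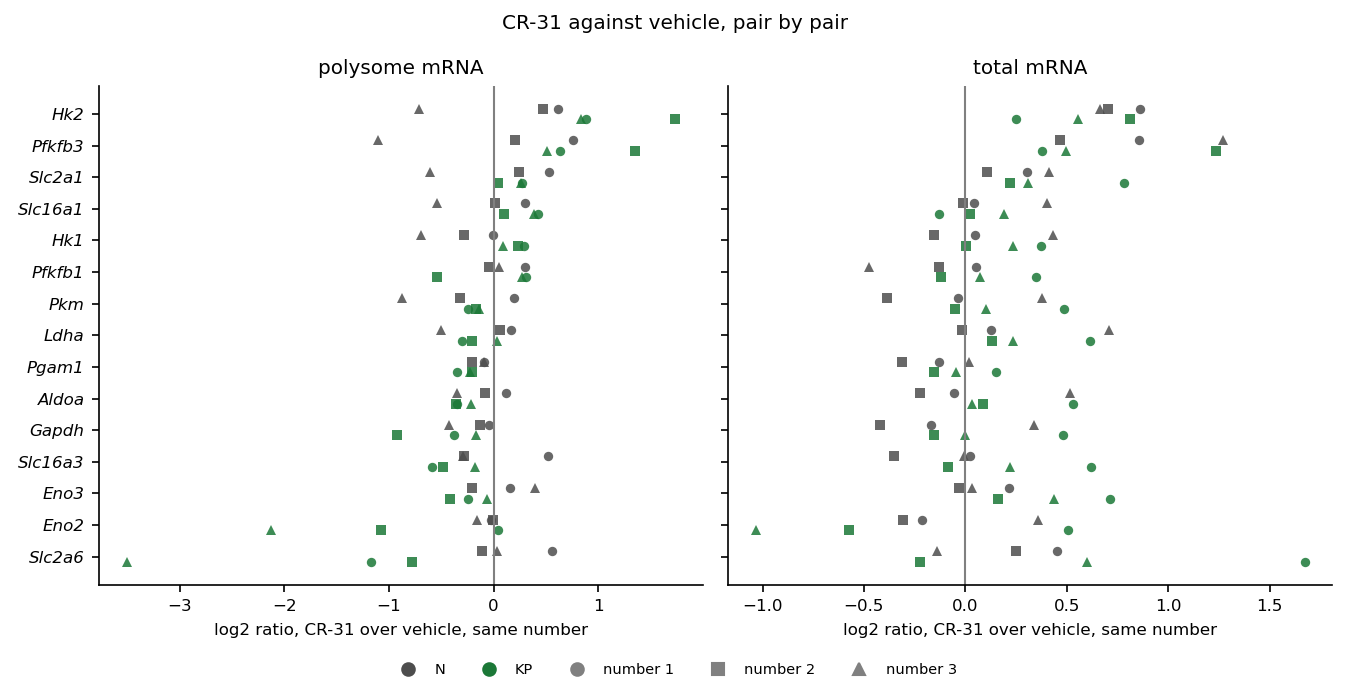
Log2 ratio of CR-31 over vehicle between libraries of the same number for 15 members, N in grey and KP in green, with the number as the marker, in polysome-associated mRNA on the left and total mRNA on the right. Hk2 and Pfkfb3 lie to the right of 0 in all KP pairs, Gapdh lies to the left in all polysome pairs, and the N number 3 polysome values of Hk2, Pfkfb3 and Pkm lie to the left of the other N pairs.

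Hk2 and Pfkfb3 were higher with CR-31 in every KP pair and in both fractions. In polysomes the log2 ratios of pairs 1, 2 and 3 were 0.88, 1.74 and 0.83 for Hk2, 0.64, 1.35 and 0.51 for Pfkfb3 and -0.38, -0.92 and -0.17 for Gapdh, and the pair split between lanes had the largest ratio for each of these genes. With the lane as a term and no block, 0 members were called in KP polysomes, with 2 and 2.91% of all genes at an unadjusted p under 0.05, and Hk2 was 1.21, Pfkfb3 0.84 and Gapdh -0.38. Hk2 polysome libraries of KP went from 20.1, 14 and 14.9 CPM with vehicle to 37.2, 46.7 and 26.6 with CR-31, each CR-31 library being above all vehicle libraries. In total mRNA they went from 22.5, 31.6 and 15.7 to 26.7, 55.4 and 23.1 CPM, higher in all 3 pairs though the groups overlapped (0.59 ± 0.47). N organoids went from 49.6, 24.5 and 27.9 to 76.1, 34 and 17 CPM in polysomes, where number 3 alone went down, and from 39.5, 18.4 and 18.3 to 71.7, 30.02 and 29 in total mRNA, up in all 3 pairs. Without number 3 of both types and with the block, Hk2 rose in KP (1.33 ± 0.16, adjusted p = 8.11e-05) and in N (0.54 ± 0.15, adjusted p = 0.0551). That fit was added after seeing the data, for a gene picked by its CR-31 change, so its p-values are no independent support. It keeps pairs 1 and 2 alone and leaves out the N polysome pair that fell (log2 ratios 0.62, 0.47 and -0.71 in pairs 1, 2 and 3). Over all lysates without the block, Hk2 in N polysomes was 0.32 and not called. The difference of the effects, KP minus N, was 0.79 ± 0.22 (adjusted p = 0.0261) in the fit without number 3. Over all lysates it was 0.85 ± 0.65 without the block (adjusted p = 0.999) and 1.01 ± 0.38 with it (adjusted p = 0.346).

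Pfkfb3 had a similar pattern. Its KP polysome libraries went from 15.3, 17.1 and 14.9 to 23.9, 43.7 and 21.2 CPM and its KP total libraries from 23.1, 23.3 and 18.4 to 30.1, 54.8 and 25.9, with no overlap in either fraction. N polysomes went from 27.3, 29.9 and 30.1 to 46.2, 34.4 and 14 CPM, again down in number 3 alone, and N total mRNA from 25.7, 27.6 and 13.8 to 46.6, 38.1 and 33.3, all above the vehicle libraries (0.82 ± 0.32, unadjusted p = 0.0252 in edgeR). With the block and without number 3 of both types, the log2 fold changes were 1.02 ± 0.16 in KP (adjusted p = 0.000398) and 0.48 ± 0.15 in N (adjusted p = 0.0964). This fit too was added after seeing the data and leaves out the N polysome pair that fell (log2 ratios 0.76, 0.20 and -1.10 in pairs 1, 2 and 3). Over all lysates without the block, Pfkfb3 in N polysomes was 0.12 and not called. The KP minus N difference was 0.55 ± 0.22 (adjusted p = 0.104) in the fit without number 3 and 0.86 ± 0.44 (adjusted p = 0.382) with the block over all lysates.

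Gapdh and Slc16a3 fell in KP polysomes when paired. They were not alone, since Aldoa (log2 ratios -0.35, -0.36 and -0.22), Gpi1, Pgam1, Pkm, Minpp1, Eno3 and Slc2a6 were also lower in each KP polysome pair. Of these, the blocked fit of all lysates called Slc2a6 only. Higher in each pair were Slc2a1, Hk1, Hk2, Pfkm, Pfkfb3, Aldoc, Ldhb, Slc16a1 and the row named Pgm1. Gapdh went from 1552, 1561 and 1279 CPM to 1192, 825 and 1137, lower in each pair and without overlap, while KP total mRNA went from 1377, 1404 and 1155 to 1922, 1262 and 1154 (0.14 ± 0.29, or -0.12 without KP CR-31 number 1). In N polysomes Gapdh was lower in each pair too, by -0.04, -0.13 and -0.43 on the log2 scale, and was not called. Slc16a3 went from 57.9, 77.2 and 22.5 CPM to 38.4, 55.0 and 19.8 in KP polysomes, lower in each pair (log2 ratios -0.59, -0.49 and -0.18). Slc16a1 went the other way in KP polysomes, from 58.8, 75.4 and 51.2 to 78.8, 80.7 and 66.7 CPM (0.29 ± 0.26), and was called in the blocked fits without N number 3 (0.30, adjusted p = 0.0389) and without number 3 of both types (0.29, adjusted p = 0.0716).

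Slc2a1 was higher in all 3 KP pairs in both fractions, from 169, 246 and 165 to 204, 254 and 197 CPM in polysomes (0.18 ± 0.35) and from 220, 251 and 173 to 378, 292 and 214 in total mRNA (0.46 ± 0.30), without a call in the fits of all lysates. In the blocked fit without N number 3 its polysome value was called in KP (0.19, adjusted p = 0.205) and in N (0.39, adjusted p = 0.144). Bpgm went from 47.4, 47.4 and 48.2 to 33.4, 44.8 and 39.1 CPM in KP total mRNA (-0.28 ± 0.20) and Minpp1 from 71.4, 98.5 and 66.3 to 60.1, 69.4 and 59.7 (-0.32 ± 0.20). Both were lower in each pair and neither was called. Eno3 read 2.23, 2.56 and 1.90 CPM with vehicle and 1.87, 1.91 and 1.81 with CR-31 in KP polysomes (-0.26 ± 0.42), and 1.62, 1.60 and 1.51 against 2.69, 1.79 and 2.07 in total mRNA (0.47 ± 0.33). It was lower in each polysome pair and higher in each total pair, without a call in translational efficiency (-0.63 ± 0.30, unadjusted p = 0.0583 in edgeR).

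The hexose transporter Slc2a6, found on lysosomes, had the largest log2 fold change, and its values rest on few counts. It had 27, 8 and 136 counts with vehicle and 4, 4 and 10 with CR-31 in KP polysomes, or 0.162, 0.108 and 1.85 CPM against 0.0441, 0.0423 and 0.117. The KP vehicle 3 polysome library, which held the leukocyte genes, stood far above the other vehicle libraries. Leaving that lysate out moved the log2 fold change from -3.36 to -0.98 (unadjusted p = 0.349 in edgeR), and leaving out both number 3 lysates of KP gave -1.61. In the blocked fit it was -2.83 over all lysates and -1.60 (adjusted p = 0.0927) without number 3 of both types. KP total mRNA had 0.0701, 0.0916 and 0.0907 CPM with vehicle and 0.333, 0.0712 and 0.163 with CR-31, where KP CR-31 number 1 stood highest. N polysomes had 0.0675, 0.309 and 0.700 CPM with vehicle and 0.123, 0.282 and 0.718 with CR-31 (0.02 ± 1.10).

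Eno2 and Slc2a3 had their highest KP value in that same library. Eno2 read 0.235, 0.256 and 1.09 CPM with vehicle and 0.242, 0.0951 and 0.211 with CR-31 in KP polysomes (-1.51 ± 0.94), and without KP vehicle 3 the value was -0.39. Slc2a3, the high-affinity glucose transporter of neurons and leukocytes, read 0.0602, 0.0405 and 0.666 CPM in KP vehicle polysomes and at most 0.134 in the other polysome libraries, on 2 to 49 counts. It had 0 counts in the N vehicle 1 total library, which allows up to 3 counts, or 0.0219 CPM, and was not tested. The immune marker sum in the KP vehicle polysome libraries was 95.0, 125 and 234 CPM, with Cd3e at 0 in all 3 and Ptprc at 0 in numbers 1 and 2. Whether RNA of other cells takes part in the values of these 3 members was not tested.

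**Figure D5:**
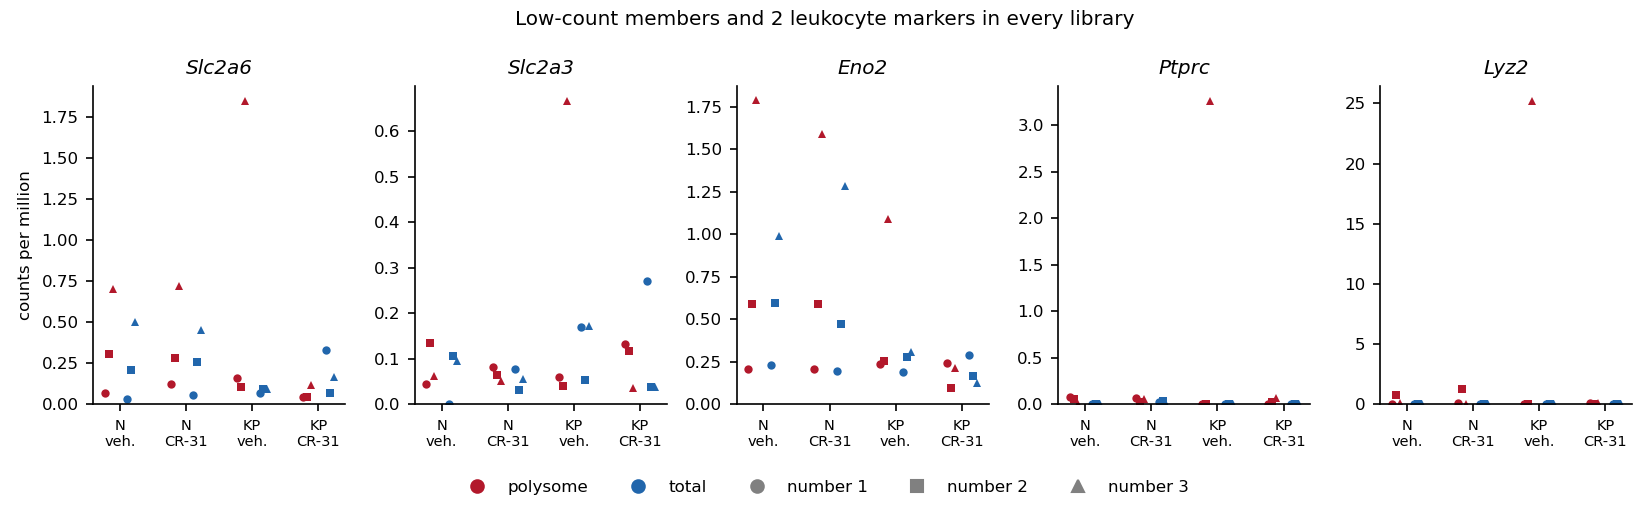
Normalised read counts (CPM) of the low-count members Slc2a6, Slc2a3 and Eno2 and of the leukocyte genes Ptprc and Lyz2 in each of the 24 libraries, polysome-associated in red and total in blue, with the replicate number as the marker. The KP vehicle 3 polysome library is the highest of all for Slc2a6, Slc2a3, Ptprc and Lyz2.

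Hk1 was the 1 member of 26 whose polysome pairs all went up in KP and down in N, beside 3.34% of all genes, and it is described here because of that pattern. KP polysome libraries went from 63.7, 55.6 and 39.7 to 77.6, 65.1 and 42.2 CPM, up in 3 of 3 pairs, and N polysome libraries from 40.3, 41.5 and 57.3 to 40.03, 34 and 35.4, down in 3 of 3, though number 1 hardly moved. The difference of the effects was 0.56 ± 0.37 over all lysates, with no p-value given since the pattern chose the gene. No difference of effects between KP and N was called for a member in the fits of all lysates, with or without the block, in polysome-associated or total mRNA, where edgeR gave 0 and 0 members with an unadjusted p under 0.05 without the block (2.26% and 0.131% of all genes) and 3 and 0 with it (14.2% and 0.909%), and DESeq2 called 0. The 3 with the block were Slc2a6, Hk2 and Hk1, and the count of Hk1 there is no support, since its pattern chose it. In translational efficiency edgeR called 0, with 3 (10.7% of all genes) at an unadjusted p under 0.05, namely Hk2 (1.30), Pfkfb3 (1.11) and Slc2a6 (-3.56). The Slc2a6 value again rests on few counts. With the block, 8 of 26 members were called in polysome-associated mRNA without N number 3, beside 27% of all genes, and 11 without number 3 of both types, beside 40.9%.

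KP and N organoids were also compared under CR-31. Since same-numbered vehicle and CR-31 libraries deviated together, this is no independent repeat of the comparison with vehicle. In polysome-associated mRNA 6 members were higher in KP, beside 11.2% of all genes, namely Ldha (0.89 ± 0.32, adjusted p = 0.120), Pfkfb1 (1.12 ± 0.36, adjusted p = 0.0835), Pgam1 (0.72), Pkm (0.73), Hk1 (0.76) and Slc16a1 (0.70). Ldhb (-1.83 ± 0.64, adjusted p = 0.110) and Eno2 (-2.09) were lower, beside 13.8%. In total mRNA 7 were higher, beside 18.9%, namely Ldha (0.74 ± 0.27, adjusted p = 0.101), Pfkfb1 (1.32), Pgam1 (0.74), Pkm (0.85), Hk1 (0.82), Minpp1 (0.41) and Eno3 (0.63), and Ldhb (-2.29) and Eno2 (-1.73) were lower, beside 21%. Ldha libraries with CR-31 read 1025, 660 and 1116 CPM in N and 1924, 1647 and 1604 in KP polysomes, and Ldhb libraries 7.64, 16.7 and 21 against 2.47, 3.18 and 7.12. Ldha did not overlap between these polysome groups, nor did Ldhb. Without KP CR-31 number 1, edgeR called 0 of 26 members in polysome-associated mRNA (9.48% of all genes) and 3 in total mRNA (18.6%). Without KP CR-31 number 2 it called 4 in polysome-associated mRNA (20.7%), and without N CR-31 number 2 it called 3 (17.5%) and 5 (33%) in the 2 fractions. Without N number 3 it called 14 (34.7%) and 12 (26.9%).

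Within vehicle-treated lysates, polysome-associated mRNA was set against total mRNA, which gives how much of an mRNA is on heavy polysomes relative to the average mRNA. In KP, 3 members were enriched on polysomes, beside 14.2% of all genes, namely Slc2a6 (2.27 ± 0.68, adjusted p = 0.0880), Slc16a3 (0.49) and Aldoa (0.43). The Slc2a6 value rests on the KP vehicle 3 polysome library, which held the leukocyte genes, and without that lysate it was 0.69 ± 0.59 (adjusted p = 0.587). Hk2 (-0.56), Pfkfb3 (-0.54), Pgm1 (-0.49), Pgk1 (-0.36) and Minpp1 (-0.32) were depleted, beside 13.3%. In N, 0 of 26 members were enriched, beside 8.83%, and Pfkfb1 (-0.51), Gapdh (-0.45) and Pgk1 (-0.34) were depleted, beside 6.36%. Without N number 3 the counts were 16 in KP, beside 47.8% of all genes, and 10 in N, beside 35.7%. Without KP number 3 edgeR called 0 in both, beside 0% of all genes in KP and 10.5% in N, with 1 member each at an unadjusted p under 0.05, beside 14.2% and 14.4% of all genes.

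The 31 members have 5′ leaders with a median of 178 bases and 62.9% GC in GENCODE M21, against 180 bases and 64.6% over the 11136 tested genes with a leader. Hk2 has the longest of them (474 bases, 53.0% GC) and Pfkfb3 the next (401 bases, 61.8% GC). Slc2a6 has 93 bases (63.4% GC), Gapdh 240 (62.9%), Slc16a3 216 (57.4%), and Tpi1 the shortest (24 bases).

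Other genes of glucose metabolism and HIF targets outside glycolysis were counted beside the members. Of 50 other glucose genes, 33 were tested, and in KP against N vehicle polysomes 12 rose and 3 fell, beside 20.9% and 22.2% of all genes, with a median log2 fold change of 0.30. Pgp, a phosphatase of phosphoglycolate and glycerol 3-phosphate, rose by 2.19 ± 0.23 (adjusted p = 0.000526). Slc2a8, an intracellular hexose transporter, rose by 1.19 ± 0.28 and Mpc1, a subunit of the mitochondrial pyruvate carrier, by 0.93 ± 0.24, while Slc5a1, the sodium-glucose cotransporter, fell (-3.23 ± 1.04, adjusted p = 0.0539). In total mRNA 6 rose and 3 fell, beside 13.1% and 15.4% of all genes. Of 27 tested HIF targets, 2 rose (Mif, 1.21 ± 0.42, and Egln3, 0.74 ± 0.30) and 8 fell in KP polysomes, beside the same 20.9% and 22.2%, among them Loxl2 (-1.87 ± 0.41, adjusted p = 0.0145), Ddit4 (-1.74 ± 0.44), Bhlhe40 (-1.21 ± 0.35) and Vegfa (-0.73 ± 0.34). Their median was -0.04, and in total mRNA 2 rose and 3 fell, beside 13.1% and 15.4%. Without N number 3, 13 other glucose genes rose and 3 fell in polysomes and 4 rose and 3 fell in total mRNA, while 5 HIF targets rose and 7 fell in polysomes and 2 rose and 2 fell in total mRNA, beside the shares of all genes given above for that fit. CR-31 gave 0 calls in either list in edgeR, with 3 of 33 other glucose genes and 1 of 27 HIF targets at an unadjusted p under 0.05 in KP polysomes, beside the 3.55% of all genes.

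The rows shared with a neighbour cannot be split, so that their counts belong to either gene. The row of Tpi1 and Spsb2, in which Tpi1 is the triose phosphate isomerase, read 527, 575 and 1209 CPM in N and 1642, 1387 and 1044 in KP vehicle polysomes. The row of Pfkp, the platelet phosphofructokinase, and Pitrm1 read 89.3, 63.3 and 155 against 118, 98.1 and 106 CPM. The row of Galk1, the galactokinase, and the integrin Itgb4 read 233, 116 and 268 against 298, 398 and 216 CPM, and that of Pfkfb2 and Yod1 48, 56.3 and 31.1 against 35.7, 37.7 and 35.8 CPM. For Tpi1, Pfkp and Galk1, N number 3 was the highest N library.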

How the data were processed

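Polysome-associated and total mRNA of 12 lysates were read as the counts and RPKM that the authors deposited per gene and library. Per the study's methods, reads were aligned with HISAT2, reads with several matches were discarded, and coding RefSeq transcripts were counted, with no statement on strand; the methods and the submitters' processing notes name a human build (hg38), while the genes are mouse. The deposited counts are raw and the deposited RPKM values are per length and depth. The Pdx1-Cre genotype, of which 1 allele is not reported here, comes from the methods, the groups from the sample labels.

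Counts above 0 in every library were normalised by TMM and tested with edgeR 4.0.16 (quasi-likelihood, 4 groups per fraction; translational efficiency as fraction by group over 24 libraries with the lysate as a block), with Benjamini-Hochberg adjustment over 11438 genes and a threshold of 0.25, as in the study. Adjusted p-values are edgeR's. Alternatives were RLE and upper-quartile scaling, other count filters, DESeq2 1.42.0, replicate blocks, a lane term, regression on total mRNA, a threshold of 0.05, CPM in place of RPKM and leaving out lysates. The fits without both lysates of a number were added after seeing the data. Fits were tested on simulated counts. R 4.3.3, Python 3.11.15 and matplotlib 3.10.9 were used. The pairing was checked by correlating deviations from group means across genes: r was 0.554 to 0.892 between same-numbered vehicle and CR-31 libraries in N and 0.455 to 0.803 in KP (6 of 6 pairs above 0.1 each), and -0.168 to 0.279 between N and KP (2 of 6 above 0.1 per treatment), so the labels' numbers pair treatments within a type only. Values in every library are given for members called in KP against N vehicle, for members the study names and for the 3 largest and 3 smallest CR-31 changes in KP. Members and lists were chosen with earlier results of these data known.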

Additional observations from a re-analysis of the deposited data

Results flagged for a closer look

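The effect of CR-31 on Hk1 in polysome-associated mRNA was looked at again because CR-31 was above vehicle in all 3 KP pairs and below it in all 3 N pairs. The difference of the 2 log2 fold changes, KP minus N, was 0.56 in the fit without a block and 0.53 ± 0.22 with the replicate block. The pattern stood in 1 of 26 members and in 3.34% of all genes, and since it is what drew attention to the gene, no p-value of the difference is given.

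Values of rows outside the tests stood above the N vehicle libraries in 3 places. Slc2a3 read 0.666 CPM in the KP vehicle 3 polysome library and 0.270 CPM in the KP CR-31 1 total library, each over 2 times the highest N vehicle library of its fraction. The row shared by Spsb2 and Tpi1 read 1744 CPM in the KP CR-31 1 total library, also over 2 times the highest N vehicle library. Each of these libraries, or its polysome partner, is among those that stood apart from the rest.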

How the results depend on the processing

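Counts of members called kept within 1.5 times of the reported count in 317 of 374 alternatives, and log2 fold changes of named members kept their direction and call in 989 of 1098. KP minus N differences in isozyme shares moved by less than the larger group SD in 125 of 126. That margin is wide where replicates vary. The Slc16a3 difference in polysomes ran from -9.03 to 9.82 percentage points over the leave-outs of single lysates, and that of Eno3 from 2.85 to 16.4. Fits that leave out both lysates of a number were added after seeing the data, and the cause of each change below was not tested.

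At an adjusted p under 0.05 the counts, with the share of all genes in parentheses, for KP against N vehicle were 2 (15.2%) on polysomes and 1 (8.99%) in total mRNA, 0 (6.02%) and 2 (10.6%) under CR-31, and 0 for polysome against total mRNA in KP (1.12%) and in N vehicle (3.58%). At 0.25 and without both lysates of N number 3 they were 18 in polysome-associated mRNA and 11 in translational efficiency for KP against N vehicle, 14 in polysome-associated mRNA under CR-31, and 16 (KP) and 10 (N) for polysome against total mRNA, which was 0 and 0 without both lysates of KP number 3. For N, polysome against total mRNA gave 0 without a filter on low counts (8.15%) and 1 with upper-quartile scaling (14.4%). Regression on total mRNA called 2 members (10.5% of all genes) in translational efficiency for KP against N vehicle and 11 (42.8%) without N number 3. For CR-31 in KP it called 3 with the replicate block (Slc2a6, Aldoc and Eno2, beside 16.7%) and 4 without N number 3 (Slc2a6, Hk2, Gapdh and Slc16a3, beside 18.8%).

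The replicate block within organoid type called 6 members for CR-31 in KP polysomes, 17 without N number 3 and 16 without number 3 of both types. In N it called 6 without N number 3 and 7 without number 3 of both, and for KP minus N 8 and 11. Without KP number 1 the block called 0 members in KP polysomes and 7 in N total mRNA (15.1% of all genes), and Gapdh in KP total mRNA was -0.078 with CR-31; without KP number 2 it called 0 in KP polysomes. The block shared between N and KP, whose numbers do not pair, moved Pfkfb3 in total mRNA, KP against N, to 0.000561.

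Leaving out each lysate in turn gave, with the range of the share of all genes in parentheses, 5 to 16 members (28.5% to 48.1%) in polysome-associated mRNA, 2 to 11 (14.1% to 32.9%) in total mRNA and 0 to 5 (0% to 18.8%) in translational efficiency for KP against N vehicle. Under CR-31 it gave 0 to 11 (9.48% to 32.3%) in polysome-associated and 3 to 13 (18.6% to 42.3%) in total mRNA. It gave 0 to 3 (0% to 16.6%) for the KP minus N difference of CR-31 effects in translational efficiency, and 0 to 13 (0.481% to 37.5%) in KP and 0 to 8 (1.75% to 22.1%) in N for polysome against total mRNA. Over the same leave-outs, uncalled values often changed sign, in 25 of 26 members for CR-31 in N polysomes, 15 in N total mRNA, 6 in KP polysomes and 12 in KP total mRNA, while no member value called over all lysates did so. Among those that did were Hk2 (-0.41 to 0.34) and Pfkfb3 (-0.30 to 0.13) in total mRNA for KP against N, Gapdh in KP total mRNA with CR-31 (-0.12 to 0.28) and Slc2a1 in KP translational efficiency with CR-31 (-0.29 to 0.044). For KP against N they were 11 members in polysome-associated mRNA, namely Aldoa (-0.045 to 0.77), Aldoc (-0.071 to 1.52), Gpi1 (-0.063 to 0.60), Pgk1 (-0.30 to 0.25), Eno2 (-1.83 to 0.40), Slc16a3 (-0.42 to 1.26), Slc2a1 (-0.26 to 0.21), Slc2a6 (-1.39 to 1.94), Pfkfb4 (-0.034 to 0.58), Pgm1 (-0.73 to 0.12) and Pgm2 (-0.054 to 0.93), and 9 members in total mRNA, Hk2 and Pfkfb3 among them.

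Without both lysates of KP number 3, Hk2 (0.10) and Pfkfb3 (0.071) in total mRNA were above 0 in KP against N. For CR-31 in KP translational efficiency, Bpgm was -0.10 by regression, -0.25 with the block, -0.11 with the block without KP number 3 and -0.042 by regression without N number 3, and Slc2a1 was 0.41 and 0.39 by regression with the block, with and without KP number 3.

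Depth limits Slc2a3, Slc2a6 and Eno2, and 3 samples per group and the separate lanes of KP and N limit every comparison between the types.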
